A study of Mus musculus with 46 samples.

Results

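The 8 neutrophil granule and marker genes were followed through all 46 libraries of the study: the alarmin pair S100a8 and S100a9, the secondary granule genes Ngp, Camp and Ltf, the gelatinase Mmp9, the surface antigen Ly6g and the secreted Retnlg. They were chosen by name, as the rows with these symbols in the 3 expression tables, and make up 8 of the 21231 genes that the tables list between them. Neutrophils are short-lived blood granulocytes made in the bone marrow. They fill their granules in a fixed order while they mature, first the primary granules, then the secondary and then the gelatinase granules, and mature cells leave the marrow carrying the proteins but little of the message for the early ones.

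The study asked how the brain is refilled with myeloid cells after an inhibitor of CSF1R, PLX3397, has removed microglia. All mice were male C57BL/6, with no transgene named, and the controls received vehicle. For subventricular zone (SVZ) tissue, micro-dissected from mice of about 1.5 months, the groups were control, 14 day PLX3397 (600 ppm in chow) and 5 day recovery after that treatment, with 5 libraries each. For the white matter (WM) experiment, 2-month-old mice had either vehicle or 14 days of 600 ppm PLX3397 and 28 days of recovery, and CD11b+CD45int cells were sorted by flow cytometry from whole hemispheres. These mice were taken without lipopolysaccharide (LPS, called 0 hr) or 6 or 24 hr after 0.33 mg/kg of LPS, with 3, 5 and 4 libraries of control microglia and 4 libraries of WM repopulating cells at each time. For GLOBAL repopulation, cells of the same gate from 2-month-old mice made up 4 control libraries and 3 libraries of mice given 600 ppm for 7 days and 28 days of recovery. The methods define this gate by CD11b and CD45. The antibodies they list for flow cytometry include Gr1, Ly6C and Ly6G, without a statement that the sequenced cells were gated on them. The study counts n in mice, but the labels do not tie each library to its own animal, so p-values measure the spread between these libraries.

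Values were FPKM, which correct fragment counts for gene length and library size. The low values stepped in whole reads, and the depth recovered from those steps was 4570000 to 10600000 reads in the SVZ libraries, 5240000 to 10400000 in the WM and LPS libraries and 2210000 to 5370000 in the GLOBAL libraries. All 8 genes were listed in both sorted-cell tables and passed the limit for testing, an FPKM of 1 or more in at least 3 libraries. The SVZ table listed only S100a8, S100a9 and Mmp9, of which S100a8 and S100a9 passed the limit. Sorted cells carried the defining microglial genes at high levels: the summed FPKM of 7 microglial markers such as P2ry12, Tmem119 and Sall1 was 10250 to 12890 at 0 hr. In SVZ tissue the same sum was 92.9 to 125 FPKM in control, 2.95 to 3.96 after 14 day PLX3397 and 5.06 to 8.91 in recovery. In bulk RNA, fewer cells of a type and less RNA per cell cannot be told apart. Of all 43-base windows of the transcripts of these genes, none was shared with another gene for S100a8, S100a9, Ngp, Camp, Ltf and Mmp9. For Retnlg 1.27% of windows were shared with Retnla, and for Ly6g 3.56% were shared with Ly6i and 2 unnamed gene models.

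Positions are on GRCm38.p6, a patch release of mm10. S100a8 (chr3:90669071-90670034, + strand) and S100a9 (chr3:90692630-90695721, - strand) lie close together, and their proteins pair to form calprotectin, which binds calcium and zinc. Camp (chr9:109847377-109849456, -), the cathelicidin antimicrobial peptide, Ngp (chr9:110419808-110423012, +), a cathelicidin-related granule protein, and Ltf (chr9:111019292-111042766, +), lactoferrin that sequesters iron, lie on chromosome 9. Mmp9, a gelatinase that cuts denatured collagen, is at chr2:164940326-164955850 (+). Ly6g, the antigen of the 1A8 antibody, is at chr15:75155261-75159128 (+), and Retnlg, a resistin-like secreted protein, is at chr16:48872608-48874498 (+). RefSeq promoters were at hand for 7 of the 8 genes, all but Mmp9. A core of the site of the C/EBP factors, TTGCNNAA on either strand, lay in the 250 bases before the start in 5 of these 7 genes (S100a9, Ngp, Ltf, Ly6g and Retnlg) and in 9.56% of all 32851 promoters. The 8-letter form GAGGAAGT of the PU.1 site lay in S100a8 and Ly6g and in 2.44% of all promoters. A gene was counted if any of its listed promoters held a match, whereas the shares are of single promoters, so the units differ. A match of letters is a description only, and both forms were picked after other forms had been looked at. The stretches of 5 genes that hold a match are shown: Ly6g and Ltf, whose 6 hr calls in WM repopulating cells were kept without each of the libraries that removed others, the abundant alarmin pair, and Ngp as another secondary granule gene. Each is written 5' to 3' along the gene, ends before the first annotated exon, and has the PU.1 match (S100a8), the C/EBP match (S100a9, Ngp and Ltf) or both (Ly6g) in capitals. The coordinates are chr3:90668821-90668977 (+) for S100a8, chr3:90695722-90695971 (-) for S100a9, chr9:110419558-110419746 (+) for Ngp, chr9:111019042-111019270 (+) for Ltf and chr15:75155011-75155239 (+) for Ly6g.
S100a8: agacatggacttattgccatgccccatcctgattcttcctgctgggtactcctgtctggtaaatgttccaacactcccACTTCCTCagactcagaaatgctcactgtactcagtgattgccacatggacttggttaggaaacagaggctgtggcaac
S100a9: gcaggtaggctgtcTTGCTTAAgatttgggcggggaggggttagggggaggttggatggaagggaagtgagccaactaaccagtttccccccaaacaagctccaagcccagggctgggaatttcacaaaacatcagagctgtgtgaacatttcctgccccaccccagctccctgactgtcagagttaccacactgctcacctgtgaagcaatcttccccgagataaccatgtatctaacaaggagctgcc
Ngp: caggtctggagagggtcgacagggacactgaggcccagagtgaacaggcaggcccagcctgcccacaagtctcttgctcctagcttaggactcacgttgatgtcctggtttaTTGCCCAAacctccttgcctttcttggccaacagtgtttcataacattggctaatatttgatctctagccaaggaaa
Ltf: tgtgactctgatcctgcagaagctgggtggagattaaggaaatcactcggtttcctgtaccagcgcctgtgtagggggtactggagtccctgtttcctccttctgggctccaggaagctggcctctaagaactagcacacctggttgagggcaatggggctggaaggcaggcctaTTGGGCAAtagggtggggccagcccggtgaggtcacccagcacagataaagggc
Ly6g: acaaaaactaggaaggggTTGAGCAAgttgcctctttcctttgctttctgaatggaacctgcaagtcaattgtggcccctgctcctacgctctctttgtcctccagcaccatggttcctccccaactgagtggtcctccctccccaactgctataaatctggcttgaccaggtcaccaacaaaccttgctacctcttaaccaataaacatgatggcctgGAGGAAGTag

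In SVZ tissue the alarmin pair was close to the limit of detection, and the highest values were in 5 day recovery. S100a8 was at 0.551, 0.558, 0.851, 1.76 and 1.07 FPKM in the 5 control libraries and at 0, 0.721, 3.22, 0 and 0.926 FPKM after 14 day PLX3397. In 5 day recovery it was at 0.948, 6.50, 9.37, 2.11 and 6.14 FPKM. These values rest on 1 to 4 reads per control library, 0 to 13 after 14 day PLX3397 and 2 to 32 in recovery. Of the 5 recovery libraries, 4 were above every control library and 3 were above every control and every 14 day PLX3397 library. The mean was 0.958 ± 0.499 FPKM (SD, n = 5) in control, 0.974 ± 1.33 after 14 day PLX3397 and 5.01 ± 3.44 in recovery. S100a9 was also highest in recovery, at 0.762, 3.73, 5.64, 0.424 and 3.12 FPKM, with 3 of the 5 libraries above every control and every 14 day PLX3397 library. Its mean was 0.698 ± 0.622 FPKM (SD, n = 5) in control, 0.465 ± 0.548 after 14 day PLX3397 and 2.74 ± 2.17 in recovery. None of the comparisons passed the test. On the log2(FPKM + 1) scale, recovery was above control by 1.41 ± 0.43 (SE) for S100a8 (adjusted p = 0.158, limma with Benjamini-Hochberg over all genes) and by 0.98 ± 0.39 for S100a9 (adjusted p = 0.231). Recovery against 14 day PLX3397 gave 1.58 ± 0.43 for S100a8 (limma adjusted p = 0.139) and 1.20 ± 0.39 for S100a9 (adjusted p = 0.198). The count was 0 of 2 genes tested in each SVZ comparison, where 1.27% of all 14151 genes were called for recovery against control, 0.325% for recovery against 14 day PLX3397 and 1.26% for 14 day PLX3397 against control. At an unadjusted p under 0.05, both genes passed in both recovery comparisons and neither in 14 day PLX3397 against control, where the log2 differences were -0.17 and -0.21. Without recovery replicate 1, the library with the lowest S100a8 of its group, the difference of S100a8 from control was 1.75 with a limma adjusted p of 0.0422.

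For Mmp9 no SVZ comparison passed. Its mean was 0.349 ± 0.130 FPKM (SD, n = 5) in control, 0.391 ± 0.215 after 14 day PLX3397 and 0.380 ± 0.188 in recovery, from 3 to 21 reads per library. The groups overlapped, and the exact permutation tests of the 3 pairs gave adjusted p-values of 0.944 (2-sided; the smallest p that 5 against 5 allows is 0.00794). Red cell genes were also highest in recovery. The summed FPKM of 4 erythrocyte markers (Hba-a1, Hba-a2, Hbb-bs and Alas2) was 32.4 to 79.3 in control, 41.8 to 58.0 after 14 day PLX3397 and 91.3 to 336 in recovery, and 3 of these 4 genes were higher in recovery than in control by limma. Their part in the alarmin values was not tested. The summed level of the 3 monocyte markers listed, of 7, was 2.63 to 4.46 FPKM in control, 2.29 to 4.69 after 14 day PLX3397 and 2.34 to 3.78 in recovery. Ighm, the immunoglobulin heavy chain and the 1 B cell marker listed, of 5, was at 8.54 to 17.2 FPKM in control, 2.99 to 3.91 after 14 day PLX3397 and 6.31 to 12.5 in recovery. By limma it was lower after 14 day PLX3397 than in control (adjusted p = 1.73e-05) and higher in recovery than after 14 day PLX3397 (adjusted p = 0.00323), and its part in the alarmin values was not tested.

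**Figure D1:**
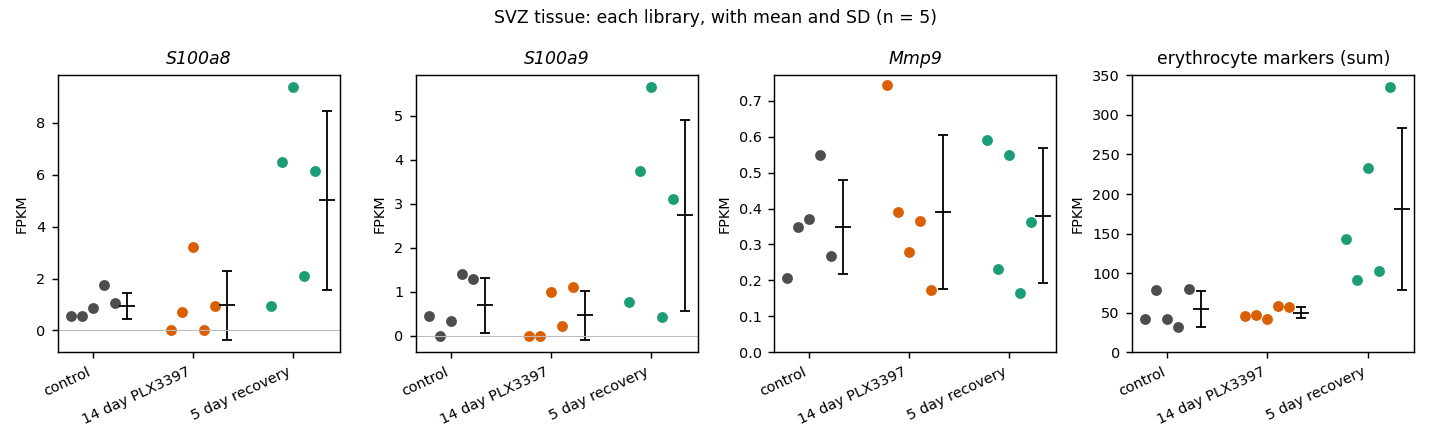
FPKM in each SVZ library for S100a8, S100a9, Mmp9 and the sum of 4 erythrocyte markers, with the mean and SD of 5 libraries beside each group. Recovery libraries reach 9.37 FPKM of S100a8 and 336 FPKM of erythrocyte markers, while the 3 groups overlap for Mmp9.

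In sorted cells S100a8 stood among the most abundant messages, and Ly6g and Mmp9 ranked lowest of the 8. By FPKM within a library, S100a8 had a median rank of 21 of 15285 genes in the WM and LPS libraries and of 39 of 19930 in the GLOBAL libraries, and reached rank 3 in both. The median rank in the WM and LPS libraries was 76 for S100a9, 113 for Ngp, 302 for Camp, 1077 for Ltf, 1436 for Retnlg, 7757 for Mmp9 and 8857 for Ly6g. In the GLOBAL libraries Mmp9 had a median rank of 6359 and Ly6g of 4926. Without LPS S100a8 was at 4733, 1010 and 2753 FPKM in control microglia and at 2343, 1933, 5437 and 1473 FPKM in WM repopulating cells. The groups overlapped, and each held one library well above the others. Camp was at 1106, 216 and 619 FPKM in control microglia and at 533, 528, 1335 and 333 FPKM in WM repopulating cells at 0 hr. The same libraries led for both genes: control replicate 1 and WM replicate 3 were the highest in S100a8 and in Camp, and control replicate 2 and WM replicate 4 the lowest.

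The other 6 genes followed at lower levels. At 0 hr, S100a9 was at 282 to 1888 FPKM, Ngp at 227 to 1740, Ltf at 53.7 to 331, Retnlg at 29.9 to 127, Ly6g at 3.80 to 17.1 and Mmp9 at 3.48 to 15.2 FPKM over the 7 libraries. For each of the 8 genes the range within either group was wider than the gap between the group medians. In each of the 6 WM and LPS groups, the library highest in S100a8 was the highest in S100a9, and in 5 of the 6 it was the highest in Ngp, in Camp, in Ltf, in Mmp9, in Ly6g and in Retnlg. In both GLOBAL groups the first library was the highest in all 8 genes. SVZ tissue and sorted cells were normalized in separate tables and cannot be tested against each other, but the lowest S100a8 value in sorted cells, 282 FPKM, stood beside a highest value of 9.37 FPKM in tissue.

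**Figure D2:**
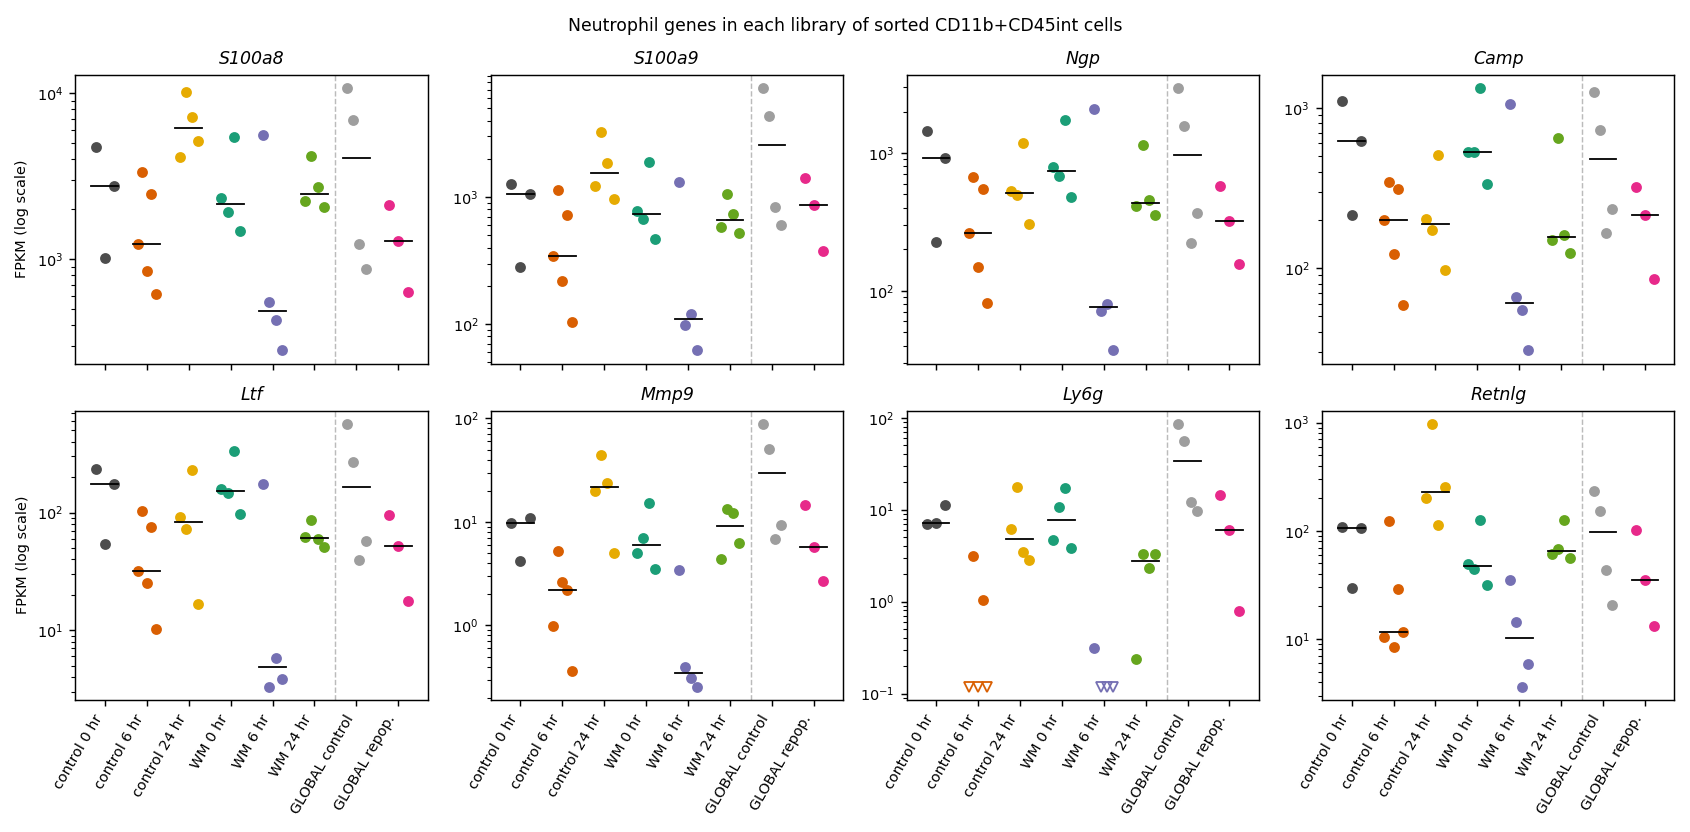
FPKM of the 8 genes in each library of sorted CD11b+CD45int cells on log axes, with a bar at the group median where that is above 0; open triangles are libraries at 0 FPKM, drawn below the lowest value. For most genes the WM 6 hr group shows 3 low libraries and 1 high library (S100a8 at 282 to 549 and 5561 FPKM), and Ly6g is at 0 in 6 of the 9 libraries taken at 6 hr.

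Between the origins of the sorted cells no gene of the 8 passed the test at any time. At 0 hr 0 of 8 were called (1.21% of all 12684 genes were), and the log2 differences ran from -0.36 (Retnlg) to 0.34 (Ltf), with limma adjusted p-values of 0.911 or more. At 6 hr 0 of 8 were called (background 0.323%), with log2 differences of -1.59 to -0.51 for WM repopulating cells against control and adjusted p-values of 0.595 or more. At 24 hr 0 of 8 were called (background 3.97%), and the differences ran from -1.88 (Retnlg) to 0.04 (Camp), with a lowest adjusted p of 0.160. At an unadjusted p under 0.05 none passed at 0 and 6 hr and 2 passed at 24 hr, Retnlg and Ly6g. The standard errors of these differences were 0.48 to 0.97 on the log2 scale.

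After LPS the called changes in the 8 genes were all downwards, and most were at 6 hr. In WM repopulating cells 7 of 8 fell (38.8% of all genes were called in this comparison, 19.5% as lower), and in control microglia 2 of 8 fell (42.5% called, 21.1% as lower), which is near the share among all genes. Ly6g, a marker of maturing and mature neutrophils, had the largest change in control microglia, from 6.98, 7.17 and 11.2 FPKM at 0 hr to 0, 3.09, 0, 1.03 and 0 FPKM at 6 hr. In WM repopulating cells it was at 4.69, 10.6, 17.1 and 3.80 FPKM at 0 hr and at 0.316, 0, 0 and 0 FPKM at 6 hr. The groups did not overlap in either origin, as was the case downwards for 18.6% of all genes in control microglia and 20.5% in WM repopulating cells, and the 6 hr values rest on 0 to 8 reads per library against 12 to 54 at 0 hr. The limma log2 difference was -2.60 ± 0.52 (SE) in control microglia (adjusted p = 0.000287) and -3.02 ± 0.50 in WM repopulating cells (adjusted p = 4.26e-05). Because several libraries were at 0, these sizes depend on the pseudocount, and with 0.1 in place of 1 they were -4.68 and -5.74. Markers of other cell types moved at 6 hr as well. Of 7 microglial markers 6 were called lower in both origins, with median log2 differences of -1.85 in control microglia and -1.66 in WM repopulating cells. The summed level of the 4 B cell markers listed, of 5, was 396 to 546 FPKM at 0 hr and 35.4 to 59.9 at 6 hr in control microglia, and 296 to 358 and 24.99 to 40.4 in WM repopulating cells, with 2 of the 3 tested called lower in both. Of the 5 border macrophage markers tested 4 and 2 were called lower, and of the 5 T cell markers 0 and 2, in control microglia and WM repopulating cells. Of 4 NK cell markers 1 and 2 were higher, and of 3 platelet markers 1 was lower in both and 1 higher in control microglia. Of 3 choroid plexus markers 1 was higher in WM repopulating cells. The part of these cell types in the results was not tested.

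Mmp9 was the other gene that fell in both origins. It was at 9.86, 4.16 and 10.9 FPKM in control microglia at 0 hr and at 0.994, 5.24, 2.61, 2.22 and 0.365 FPKM at 6 hr, with replicate 2 of the 6 hr group above the lowest 0 hr library. The difference was -1.60 ± 0.57 (SE, limma adjusted p = 0.0258), and the call was lost without control 0 hr replicate 1 (-1.45, adjusted p = 0.0902), without control 0 hr replicate 3 (-1.38, adjusted p = 0.106), without control 6 hr replicate 1 (-1.47, adjusted p = 0.0541) and without control 6 hr replicate 5 (-1.33, adjusted p = 0.0675). In WM repopulating cells Mmp9 was at 5.01, 7.01, 15.2 and 3.48 FPKM at 0 hr and at 3.43, 0.393, 0.308 and 0.257 FPKM at 6 hr, a difference of -2.11 ± 0.55 (limma adjusted p = 0.00379) with no overlap.

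Among the secondary granule genes the change in WM repopulating cells was largest for Ltf. Ltf was at 157, 146, 331 and 97.0 FPKM at 0 hr and at 175, 3.32, 5.84 and 3.82 FPKM at 6 hr, so 3 libraries were far below every 0 hr library and replicate 1 lay within them. The difference was -3.72 ± 0.89 (SE, limma adjusted p = 0.00189). Camp was at 533, 528, 1335 and 333 FPKM at 0 hr and at 1056, 66.2, 54.6 and 30.7 FPKM at 6 hr, and fell by 2.49 ± 0.81 on the log2 scale (limma adjusted p = 0.0177). Ngp was at 793, 686, 1740 and 476 FPKM and then at 2092, 71.4, 80.6 and 36.9 FPKM, and fell by 2.48 ± 0.88 (limma adjusted p = 0.0277). For both genes replicate 1 at 6 hr was again among the high libraries and the other 3 were below every library of 0 hr.

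S100a9 and Retnlg fell in WM repopulating cells as well. S100a9 was at 782, 678, 1888 and 470 FPKM at 0 hr and at 1310, 98.7, 119 and 62.1 FPKM at 6 hr, and fell by 2.22 ± 0.75 (SE, limma adjusted p = 0.0214). Retnlg was at 49.1, 44.8, 127 and 31.5 FPKM and then at 35.2, 14.5, 3.63 and 5.83 FPKM, and fell by 2.27 ± 0.73 (limma adjusted p = 0.0163). Retnlg in replicate 1 was thus above 1 of the 0 hr libraries, and its S100a9 above 3 of them. S100a8 had a log2 difference of -1.65 ± 0.68 that did not pass (limma adjusted p = 0.0573). In control microglia these 6 genes had differences of -0.76 (S100a8) to -1.79 (Ltf) with adjusted p-values of 0.0726 to 0.409, and Retnlg (-1.70) passed without control 0 hr replicate 2 (-2.31, limma adjusted p = 0.0357) or without control 6 hr replicate 2 (-2.32, adjusted p = 0.00720). The test of the difference in LPS response between the origins called 0 of 8 at 6 hr (0.0237% of all genes were called) and 0 of 8 at 24 hr (0.0867%), with 0 of 8 at an unadjusted p under 0.05 in both, so a stronger fall in WM repopulating cells was not shown.

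Replicate 1 of the WM 6 hr group stood apart from the other 3 libraries of its group. Its S100a8 was 5561 FPKM against 549, 427 and 282, its Ngp 2092 against 71.4, 80.6 and 36.9, and its Camp 1056 against 66.2, 54.6 and 30.7 FPKM. Its Ly6g, however, rested on 1 read (0.316 FPKM), whereas WM 0 hr replicate 3, with a like S100a8 level of 5437 FPKM, had 54 reads of Ly6g (17.1 FPKM). Without this library all 8 genes were called lower, S100a8 at -2.60 (limma adjusted p = 0.000595), and S100a8 also passed without WM 0 hr replicate 4 (-1.90, adjusted p = 0.0493). The count of 7 was not stable to other libraries either: it was 4 without WM 6 hr replicate 2 and 3 without WM 0 hr replicate 3, WM 6 hr replicate 3 or WM 6 hr replicate 4, with adjusted p-values of 0.0514 to 0.119 for the genes that lost their call. Leaving out 1 library in turn moved the log2 difference from -3.76 to -1.83 for Ngp and from -3.60 to -1.91 for Camp. For S100a9 it moved from -3.19 to -1.73 and for Retnlg from -2.82 to -1.83. Ly6g, Ltf and Mmp9 were the 3 genes that kept their calls without each of the libraries named above.

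**Figure D3:**
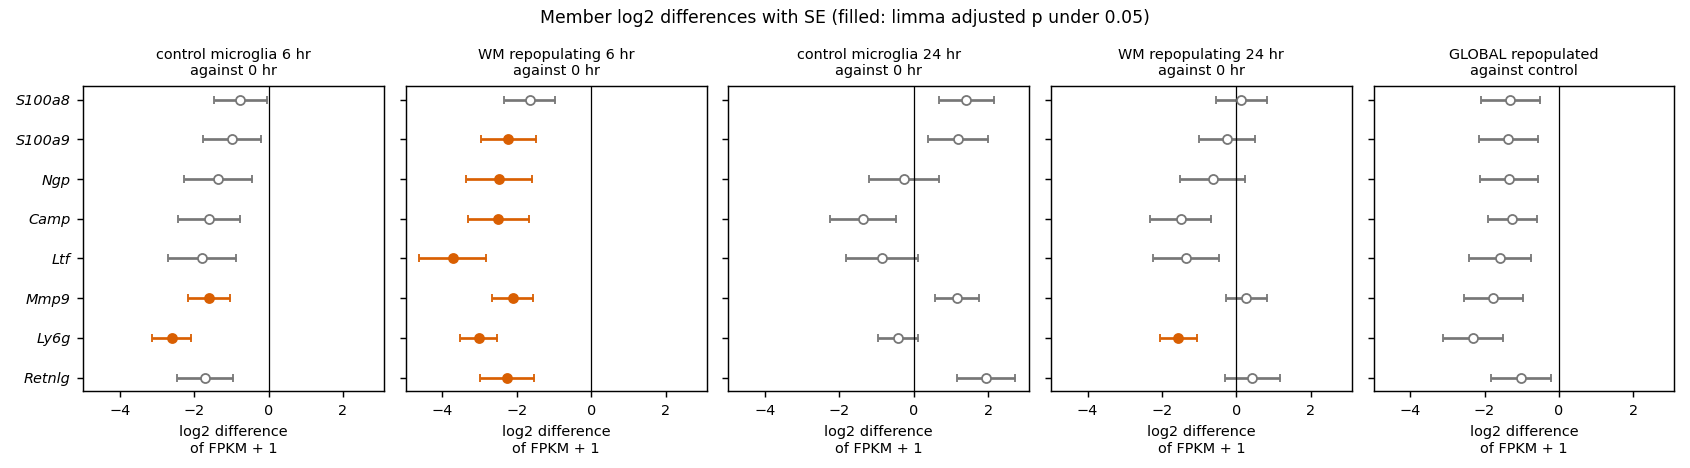
Limma log2 differences of FPKM + 1 with SE for the 8 genes in 4 LPS comparisons and in GLOBAL repopulated against control cells; filled orange points passed an adjusted p of 0.05. At 6 hr all points lie below 0 in both origins, with 2 and 7 of 8 filled, and at 24 hr the genes spread to both sides.

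At 24 hr the differences of the 8 genes lay on both sides of 0. In control microglia 0 of 8 were called (21.3% of all genes were), with Camp at -1.37 ± 0.88 (SE) and Retnlg at 1.95 ± 0.79 on the log2 scale (limma adjusted p = 0.288 and 0.0824). At an unadjusted p under 0.05 Retnlg alone passed. Retnlg was at 108, 29.9 and 107 FPKM at 0 hr and at 200, 974, 113 and 255 FPKM at 24 hr, and these groups did not overlap, as was the case for 15.8% of all genes in the upward direction. S100a8 was at 4105, 10186, 7189 and 5168 FPKM at 24 hr in control microglia, with 3 of these 4 libraries above the highest of 0 hr, 4733 FPKM. Without control 24 hr replicate 3 Retnlg passed (2.37, limma adjusted p = 0.0452), and without control 24 hr replicate 4 Mmp9 passed (1.72, adjusted p = 0.0340). Called lower in the same comparison were 7 of 7 microglial, 1 of 5 border macrophage, 1 of 3 B cell and 1 of 3 platelet markers. Called higher were 2 of 7 monocyte and 1 of 4 NK cell markers, and 0 of 5 T cell and 0 of 3 choroid plexus markers were called. The part of these cell types in the values of the 8 genes was not tested.

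In WM repopulating cells at 24 hr 1 of 8 was called (18.8% of all genes were, 8.29% as lower). Ly6g was at 0.238, 3.30, 2.31 and 3.27 FPKM, each below the lowest library of 0 hr (3.80 FPKM, a separation seen downwards for 12% of all genes), with a log2 difference of -1.56 ± 0.50 (SE, limma adjusted p = 0.0311). It missed the threshold with a pseudocount of 0.1 (adjusted p = 0.132), and without WM 0 hr replicate 2 (-1.43, adjusted p = 0.0850), WM 0 hr replicate 3 (-1.21, adjusted p = 0.124), WM 24 hr replicate 1 (-1.15, adjusted p = 0.132) or WM 24 hr replicate 3 (-1.62, adjusted p = 0.0522). The other 7 genes had differences of -1.50 (Camp) to 0.43 (Retnlg). Ltf also did not overlap, at 62.2, 86.2, 60.1 and 51.1 FPKM against 97.0 FPKM or more at 0 hr, and had a difference of -1.36 ± 0.89 (limma adjusted p = 0.314). A limma fit of only the groups compared called 3 genes, Ly6g, Ltf (-1.36, adjusted p = 0.00589) and Camp (-1.50, adjusted p = 0.0447). The share of all genes called in that fit was not counted, so nothing is read from its count. S100a8 was at 2247, 4179, 2709 and 2061 FPKM, inside the range of the 0 hr group. Called lower in the same comparison were 7 of 7 microglial, 4 of 5 T cell, 2 of 3 choroid plexus, 1 of 5 border macrophage, 1 of 3 B cell and 1 of 3 platelet markers, and called higher were 3 of 7 monocyte and 1 of 4 NK cell markers. The summed choroid plexus level was 279 to 715 FPKM at 0 hr and 10.2 to 32.3 FPKM at 24 hr. The summed T cell level was 19.5 to 43.5 FPKM at 0 hr and 4.84 to 11.5 FPKM at 24 hr. The part of these cell types in the fall of Ly6g was not tested.

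GLOBAL repopulated cells had lower means of all 8 genes than their controls, within a wide spread. S100a8 was at 10782, 6887, 1227 and 866 FPKM in the 4 control libraries and at 2124, 1294 and 630 FPKM in the 3 GLOBAL repopulated libraries. Ly6g was at 85.9, 56.0, 12.2 and 9.66 FPKM in control and at 14.6, 5.97 and 0.796 FPKM in repopulated cells. For both genes 2 control libraries stood several-fold above the other 2, which overlapped with the repopulated libraries. The log2 differences ran from -1.03 (Retnlg) to -2.32 (Ly6g), with limma adjusted p-values of 0.470 to 0.704, and 0 of 8 were called, as were 0% of all 16651 genes. At an unadjusted p under 0.05 Ly6g and Mmp9 passed. The count of 0 changed when the replicate number was used as a block, as given in the last section. Monocyte and erythrocyte markers were also spread in the controls, with summed levels of 117 to 558 and 8.07 to 77.9 FPKM against 75.5 to 236 and 4.44 to 23.3 FPKM in repopulated cells. Summed levels that did not overlap included, lower in repopulated cells, those of border macrophage markers (26.9 to 38.9 FPKM in control, 15.1 to 19.3 in repopulated cells), endothelial markers (15.04 to 22.4 and 7.57 to 11.7) and NK cell markers (13.4 to 48.7 and 8.80 to 12.8). Of 4 platelet markers 2 were tested. Gp9 was at 31.3 to 52.55 FPKM in control and 55.8 to 61.4 in repopulated cells, and the mean of Itga2b was 1.54 and 1.14 FPKM. Their sum (33.2 to 53.2 and 56.7 to 63.0), higher without overlap in repopulated cells, thus rested mostly on Gp9. By limma 0 genes of these lists were called. The share of all genes that separate in this way is not given. The part of these cell types in the result was not tested.

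Because the libraries differed mostly in how much of these messages they held, 6 of the other 7 genes were also, after these values had been seen, set against S100a8 inside the same library, which removes the scaling of the library. Ly6g, with several libraries at 0, was left out. At 0 hr in control microglia these shares spread least for Camp and most for Mmp9, at 0.208 to 0.412% of S100a8, and Retnlg was at 2.29 to 3.89%, S100a9 at 26.8 to 38.4% and Ngp at 22.5 to 33.2%. Camp was at 21.3, 22.5 and 23.4% of S100a8 in control microglia and at 22.6 to 27.3% in WM repopulating cells. At 24 hr Camp was at 1.70, 1.88, 4.95 and 7.04% of S100a8 in control microglia and at 5.96 to 15.4% in WM repopulating cells, so every 24 hr library was below every 0 hr library of its origin. Set against S100a8 in the same way, 1.4% of the 12683 tested genes other than S100a8, Camp included, lay lower without overlap in both origins, and the median log2 shift over the 11580 genes above 0 in all these libraries was -0.75. Averaged over the 2 origins the log2 ratio of Camp to S100a8 was lower by 2.21 at 24 hr (2-sided exact permutation test of libraries within each origin, p = 0.000408, the smallest it can give; adjusted p = 0.00286 over 21 ratio tests).

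The other secondary granule genes were lower as well. Relative to S100a8, Ltf was lower at 24 hr by 1.89 (exact permutation, adjusted p = 0.00429) and Ngp by 1.23 (adjusted p = 0.00343) on the log2 scale. At 6 hr the decreases were 0.85 for Camp (adjusted p = 0.00268), 1.68 for Ltf (adjusted p = 0.00268) and 0.72 for Ngp (adjusted p = 0.0174). These 5 calls, and that of Camp at 24 hr, held without each library in turn. S100a8 is itself a moving reference: the median gene had a log2 shift of -0.75 against it at 24 hr and of 1.20 at 6 hr, the latter over 11498 genes above 0 in all libraries of 0 and 6 hr. At 24 hr 1.87% of genes were at or below the value of Camp, 3.74% at or below that of Ltf and 18.5% at or below that of Ngp, so the Ngp shift was closer to that of the typical gene. At 6 hr the shares were 2.03% for Camp, 0.583% for Ltf, 2.45% for Ngp and 0.591% for Mmp9. Mmp9 differed in its course: its ratio to S100a8 was lower by 1.68 at 6 hr (exact permutation, adjusted p = 0.00343) and differed by 0.01 between 24 and 0 hr (adjusted p = 0.993). Retnlg had a log2 ratio to S100a8 of -0.89 at 6 hr (adjusted p = 0.0570) and 0.43 at 24 hr (adjusted p = 0.336) relative to 0 hr. The Retnlg call at 6 hr appeared without control 6 hr replicate 2 (-1.05, adjusted p = 0.0214), WM 6 hr replicate 2 (-1.05, adjusted p = 0.0262) or WM 6 hr replicate 4 (-0.996, adjusted p = 0.0428), and that at 24 hr without control 24 hr replicate 3 (0.68, adjusted p = 0.0448).

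Retnlg and Camp were also set against each other, a pair taken because their 24 hr differences in control microglia were the highest and the lowest of the 8, so the ratio is given as a description. Its 3 tests are counted in the 21 adjusted over, and nothing is read from them. Retnlg was at 9.78 to 17.3% of Camp in control microglia and at 8.48 to 9.48% in WM repopulating cells at 0 hr. At 24 hr it was at 22.3 to 564% and at 10.6 to 78.5%, with the highest value in control replicate 2. The log2 ratio was higher at 24 hr by 2.64. S100a9 kept close to S100a8, at 16.8 to 38.4% of it in the WM and LPS libraries and at 60.1 to 69.4% in the GLOBAL libraries, which were normalized in a separate table. Its log2 ratio was lower by 0.41 at 6 hr and by 0.31 at 24 hr (exact permutation, adjusted p = 0.0411 for both), with 4.16 and 80.8% of genes at or below these values, and these calls were lost without 5 of 16 and 10 of 15 libraries in turn. No ratio to S100a8 passed between WM repopulating cells and control microglia over the 3 times (lowest adjusted p = 0.0763, exact permutation, for Ngp and Camp at 0.46 and 0.50). Camp passed without control 6 hr replicate 1 (0.53, adjusted p = 0.0483), control 24 hr replicate 3 (0.62, adjusted p = 0.0258) or WM 6 hr replicate 4 (0.53, adjusted p = 0.0462), and Ngp without control 24 hr replicate 3 (0.56, adjusted p = 0.0428), WM 6 hr replicate 2 (0.52, adjusted p = 0.0451) or WM 6 hr replicate 4 (0.52, adjusted p = 0.0428), all by exact permutation. All ratios to S100a8 share that gene, so they are not separate evidence.

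**Figure D4:**
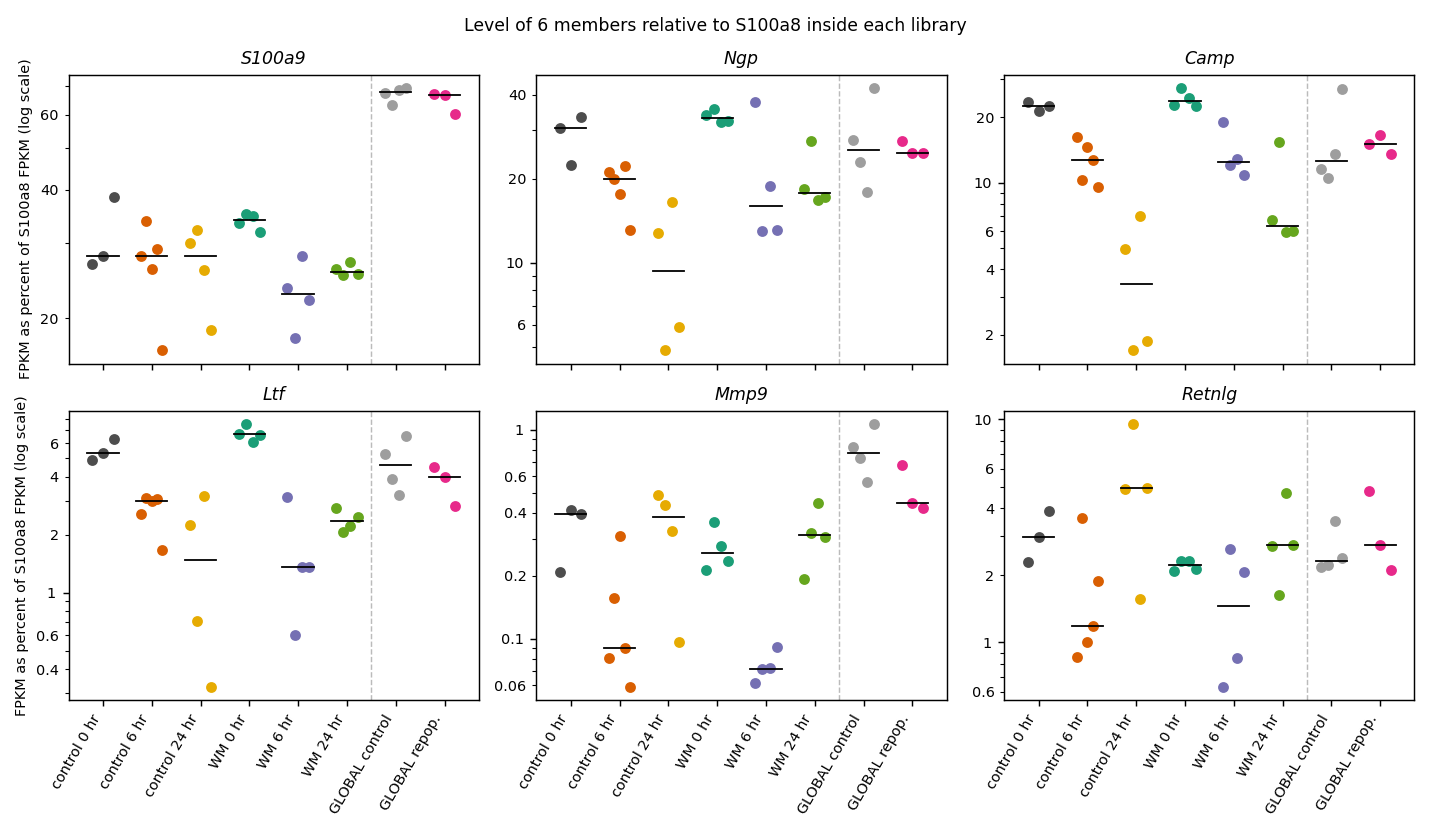
FPKM of 6 genes as a percent of S100a8 FPKM in the same library, on log axes, with a bar at the group median, for the 8 groups of sorted cells. The medians of Camp, Ltf and Ngp are highest at 0 hr and lower at 6 and 24 hr in both origins (Camp at 21.3 to 27.3% against 1.70 to 15.4% at 24 hr), while the medians of Mmp9 are lowest at 6 hr.

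Other neutrophil genes did not follow the 8 as one block. Of the 5 primary granule genes, the enzymes Mpo, Elane, Prtn3 and Ctsg and the early granulocyte marker Ms4a3, 0 of 5 were called in any comparison of sorted cells, and their summed level ran from 1.92 to 275 FPKM over the 24 WM and LPS libraries. Of 27 further neutrophil genes tested in control microglia at 6 hr, 12 rose and 1 fell (Csf3r), and in WM repopulating cells 9 rose and 3 fell (Csf3r, Olfm4 and Pglyrp1), while the 8 genes above fell or did not pass. The 27 were 10 further granule and cytosol genes, 8 receptor and mature neutrophil genes, the 5 primary granule genes, 3 neutrophil attractants and 1 transcription factor. Called higher in control microglia and WM repopulating cells were 4 and 3 of the 10, 5 and 5 of the 8, and 3 and 1 of the attractants. Among all genes 21.4 and 19.3% were called higher in these comparisons, and 42.5 and 38.8% in either direction. The 27, attractants included, were thus called higher more often than all genes were and about as often in either direction. The largest called changes in control microglia were in Hp, the haptoglobin that binds free haemoglobin (5.51 ± 0.53 log2, SE), Il1r2, a decoy receptor for interleukin 1 (4.52 ± 0.72), Trem1 (4.15 ± 0.49), Clec4d (3.94 ± 0.50), and the formyl peptide receptors Fpr1 (3.67 ± 0.45) and Fpr2 (3.57 ± 0.45). In WM repopulating cells they were in Hp (4.60 ± 0.51), Il1r2 (3.99 ± 0.69), Clec4d (3.77 ± 0.48), Fpr2 (3.64 ± 0.44), Trem1 (3.46 ± 0.47) and Fpr1 (3.35 ± 0.43). Monocytes and activated macrophages also use many of these genes. Of the 7 monocyte markers, 6 were called higher in control microglia and 7 in WM repopulating cells at 6 hr. Their summed level was 94.9 to 270 FPKM at 0 hr and 1172 to 3418 FPKM at 6 hr, and the microglial sum was 2677 to 4709 FPKM at 6 hr. Their part in these results was not tested.

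At 24 hr 9 of the 27 genes were called higher and 0 lower in control microglia, and 6 higher and 1 lower in WM repopulating cells, where 12.1 and 10.5% of all genes were called higher and 21.3 and 18.8% in either direction. Il1r2 led in both, by 4.50 ± 0.75 and 4.84 ± 0.69 log2 (SE), in control microglia and WM repopulating cells, followed by Fpr1 (4.26 ± 0.47 and 3.20 ± 0.43) and the neutrophil attractant Cxcl2 (2.99 ± 0.40 and 2.82 ± 0.37). Trem1 (2.46 ± 0.51 and 2.37 ± 0.47) was called in both as well. Clec4d (2.52 ± 0.52) and Hp (2.29 ± 0.55) completed the 6 largest in control microglia, and Fpr2 (1.70 ± 0.44) and Olfm4 (-1.50 ± 0.45), a secondary granule glycoprotein, those in WM repopulating cells. The chemokine receptor Cxcr2, which brings mature neutrophils to CXCL ligands, was the 1 gene of the 27 called between origins at 24 hr, lower in WM repopulating cells by 1.42 ± 0.41 (limma adjusted p = 0.0497), and 1 of 27 is near the 3.97% of all genes called there. It was at 5.45 to 30.9 FPKM in control microglia and at 2.53 to 4.31 FPKM in WM repopulating cells at that time. In the GLOBAL comparison 0 of 28 further genes were called, and in SVZ tissue the 1 called gene of 6 was Csf3r, the receptor for the growth factor G-CSF, which microglia also use, lower than control by 1.01 ± 0.10 after 14 day PLX3397 and by 0.93 ± 0.10 in recovery.

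**Figure D5:**
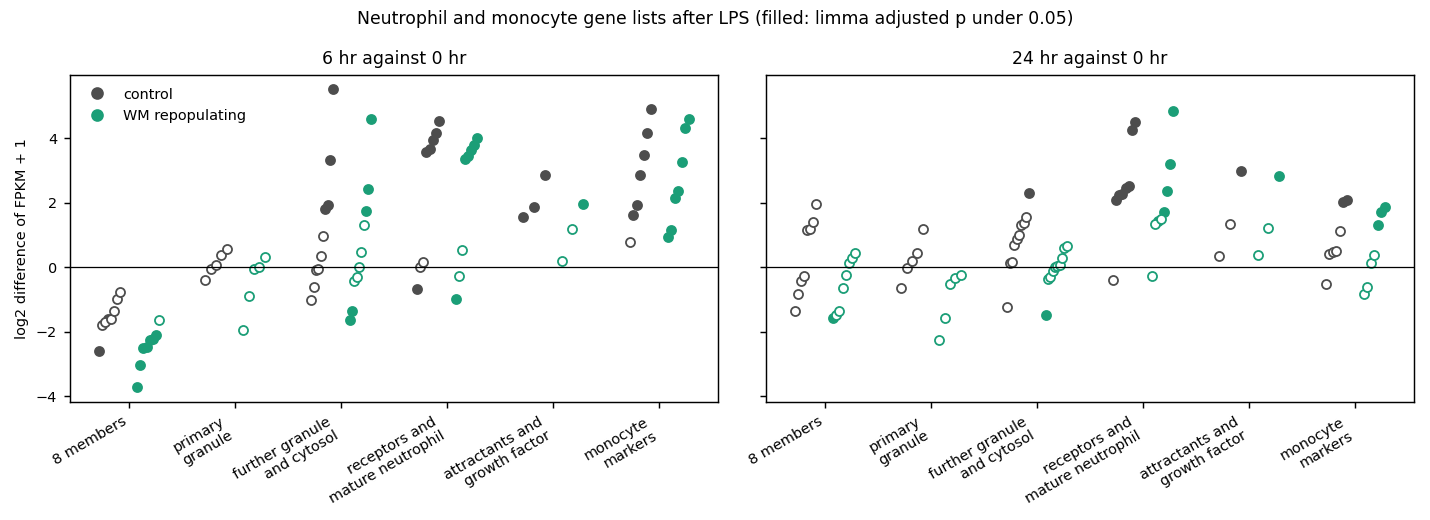
Limma log2 differences of FPKM + 1 at 6 and 24 hr against 0 hr for each gene of 6 lists, with control microglia in grey and WM repopulating cells in green; filled points passed an adjusted p of 0.05. At 6 hr the 8 genes lie below 0 and most receptor and monocyte genes above it (Hp at 5.51 in control microglia is the highest point).

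The genes most like S100a8 in their pattern were ranked within each table. Over the 24 WM and LPS libraries the highest Pearson correlations of log2(FPKM + 1) with S100a8 outside the 8 genes were those of Pglyrp1, a granule peptidoglycan binder (0.942), Cd24a (0.849), Chil1 (0.830), Ceacam10 (0.813), Serpinb1a (0.802), Tonsl (0.776), Mmp8 (0.768), Fam101b (0.767), Anxa1 (0.762) and Tacc3 (0.756). Within the 8 genes the correlation with S100a8 ran from 0.649 (Ly6g) to 0.982 (S100a9). Over the 7 GLOBAL libraries the highest were those of Wfdc21 (0.998), Anxa2 (0.994), Gda (0.988), Chil3 (0.987), Plp2 (0.986), S100a11 (0.984), Cd177 (0.983), Mrgpra2a (0.982), Mrgpra2b (0.978) and Gm12854 (0.977). In the 15 SVZ libraries they were those of Hsp90ab1 (0.840), Arhgap44 (0.826), Lrg1 (0.824), Xdh (0.812), Hspa1l (0.795), Smim3 (0.783), Xbp1 (0.770), Taf6 (0.768), Oscp1 (0.760) and Rexo4 (0.747), and S100a9 had 0.902. These values are descriptions, since the libraries share groups and the genes were ranked from the whole table.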

How the data were processed

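The deposited FPKM values were made by the authors. Per the labels' processing notes, reads were aligned to mm10 with STAR and counted per gene with featureCounts, and edgeR and limma were used; the 3 tables were normalized separately. The labels and the study's methods differ on library kit and read length. Columns were matched to samples by title, and 0 columns had no sample. Depth was recovered from whole-read steps (97.7, 99.3 and 99.9% of low genes stepped in whole reads), and no count test was run. Comparisons used limma 3.58.1 in R 4.3.3 (lmFit, eBayes with trend, 2-sided) on log2(FPKM + 1), over genes at an FPKM of 1 or more in at least 3 libraries, with Benjamini-Hochberg adjustment over all genes of the table and calls at 0.05. Fold changes are on that scale and understate those of low genes. On simulated data with 200 genes changed, 200 (WM against control at 0 hr, 12406 genes) and 190 (GLOBAL, 16457 genes) were called. Unchanged genes called numbered 16 and 4. The changed genes were picked for a higher level and a low spread. These counts therefore do not say how often changes in the 8 genes would be called. Mmp9 in SVZ tissue and the ratios had exact permutation tests. The 8 genes and all lists were chosen with earlier results of these data known. Named beyond the 8 were, per comparison, the 6 called genes of the further neutrophil lists with the largest change, and the 10 genes most correlated with the most abundant of the 8; a Pearson correlation was given without a p-value. The ratios were added after seeing the data. No protein sequence was used here, and the promoter of Mmp9 was not analysed here. Of the gene lists, 2 genes are not reported here and were left out of all counts and sums of their lists.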

Additional observations from a re-analysis of the deposited data

Results flagged for a closer look

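In 13 of 57 sets of values (a gene in a group of 4 or 5 libraries), 1 library lay farther from the others than Dixon's limit allows. Chance gives about 1 in 20 such sets, and the genes are not independent of each other, so 1 library can give many. In the WM 6 hr group replicate 1, the highest library for all 8 genes, lay past this limit for 7: S100a8 at 5561 FPKM (next library 549), S100a9 at 1310 (119), Ngp at 2092 (80.6), Camp at 1056 (66.2), Ltf at 175 (5.84), Mmp9 at 3.43 (0.393) and Ly6g at 0.316 (0, so that 1 read set it apart). In the WM 24 hr group replicate 2 stood above the others in Ngp (1142 FPKM, next 455) and Camp (645, next 161). Retnlg was highest in control 6 hr replicate 2 (122 FPKM, next 29.1), control 24 hr replicate 2 (974, next 255) and WM 24 hr replicate 3 (127, next 68.4). In SVZ tissue 14 day PLX3397 replicate 3 stood apart in S100a8 (3.22 FPKM, next 0.926).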

How the results depend on the processing

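With few reads of Ly6g, and of all 3 genes in SVZ tissue, depth limits what could be detected there. Leaving out 1 library in turn gave 0 to 1 genes called for SVZ recovery against control, 1 to 3 for control microglia at 6 hr, 0 to 1 at 24 hr, 3 to 8 for WM repopulating cells at 6 hr and 0 to 1 at 24 hr. The count was 0 throughout in the other comparisons. Differences that did not pass changed sign without 1 library: S100a8 in SVZ tissue after 14 day PLX3397 (-0.503 to 0.0165), Ngp in control microglia at 24 hr (-1.05 to 0.28), and in WM repopulating cells at 24 hr S100a8 (-0.11 to 0.52) and S100a9 (-0.52 to 0.15). Among the ratios, whose omissions were chosen after seeing the data, sign changed for Retnlg over Camp at 6 hr (-0.23 to 0.23), Mmp9 over S100a8 at 24 hr (-0.16 to 0.27), and between origins for S100a9 over S100a8 (-0.079 to 0.029) and Ltf over S100a8 (-0.06 to 0.31).

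For WM repopulating cells at 24 hr, a pseudocount of 0.1 gave 0 genes called, and a fit of only the groups compared gave 3 (Ly6g, Camp at -1.50 with adjusted p = 0.0447 and Ltf at -1.36 with adjusted p = 0.00589, limma). The cause was not tested. Other filters, quantile normalization and a fit without trend left every count within 1.5 times. For refits other than the one with the replicate number as a block, the share of all genes called was not counted.

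Replicate numbers were not used as pairs in the main fits. Deviations of same-numbered libraries from their group means correlated at -0.19 to 0.266 in the WM and LPS libraries, -0.155 to 0.486 in SVZ tissue and 0.0562 to 0.137 in the GLOBAL libraries. Libraries of other numbers gave -0.276 to 0.312, -0.48 to 0.289 and -0.141 to 0.091. The medians of same and other numbers were -0.00106 and -0.00368, 0.0539 and -0.00713, and 0.102 and -0.0411. Whether same-numbered libraries belong together cannot be told from these values. With the number as a block, 1 gene (Ly6g) in place of 2 was called in control microglia at 6 hr (40.2% of all genes) and 7 (all but Ngp) in place of 0 in GLOBAL repopulated cells (55 of 16651 genes, 0.33%), with Ly6g at -2.80 (limma adjusted p = 0.00217). Other counts stayed within 1.5 times.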
